A study of Homo sapiens with 4 samples.

Results

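The genes described are the subunits of the AP-1 transcription factor and the related gene ATF3, measured in HuH7 cells, a human hepatocellular carcinoma line, with and without knockdown of MKL1 and MKL2. The 10 genes were taken as a family: the Fos genes FOS, FOSB, FOSL1 and FOSL2, the Jun genes JUN, JUNB and JUND, and ATF3, BATF and BATF3. All 10 were measured, each by 1 probe annotated to that gene alone, among 18417 genes tested. The MKL1/2 shRNA group comprised 2 samples that stably expressed short hairpin RNA (shRNA) against both genes, and the control shRNA group 2 samples that stably expressed a control shRNA. The shRNAs were cloned in pLKO.1, a lentiviral vector, and the cells of both groups were infected, selected with puromycin for 7 days, kept below passage 10 and grown in medium with 10% serum. The cells were sampled as stable knockdown cultures, no serum stimulation was compared, and the labels call the samples biological replicates without saying whether the infections were separate, so p-values measure the spread between these samples, which may be technical. Total RNA was read on 1-colour expression arrays, 1 per sample, and values are the deposited log2 expression values.

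AP-1 is a dimer of 2 basic leucine zipper proteins, usually a Fos with a Jun, that binds the DNA element known as TRE and activates genes of proliferation, invasion and stress. Several of its genes are classical immediate early genes: FOS, FOSB and JUNB are switched on by serum through serum response factor (SRF), which binds elements called CArG boxes together with ternary complex factors. MKL1 and MKL2, now named MRTFA and MRTFB, are the other class of SRF cofactors, held inactive by monomeric actin. In mouse liver, Jun is known to promote the early stages of hepatocellular carcinoma.

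Of the shRNA targets, the MKL1 transcript was called lower and the MKL2 transcript was not. The probe for MRTFA, whose annotation also lists RBM15, read 6.81 and 6.91 in the MKL1/2 shRNA cells, against 7.77 and 7.80 in the control cells, and fell by 0.93 on the log2 scale (SE 0.096, limma adjusted p = 0.0404). MRTFB read 6.84 and 7.11 in MKL1/2 shRNA cells and 7.20 and 7.22 in control cells, and its log2 difference of -0.23 missed the threshold (SE 0.12, limma adjusted p = 0.448). Without control replicate 1 the MRTFA probe differed by -0.94 on the log2 scale and without control replicate 2 by -0.91, with limma adjusted p of 0.732 and 0.638. The 9 measured hepatocyte markers, among them ALB, AFP, TTR and APOB, lay between 9.95 and 12.42 on the MKL1/2 shRNA arrays and between 9.91 and 12.26 on the control arrays. The 2 MKL1/2 shRNA arrays differed more from each other (SD of 0.265 over genes for the log2 difference) than the 2 control arrays did (0.154), and about as much as knockdown arrays differed from control arrays (0.261 to 0.31). These are bulk samples, in which fewer cells that express a gene and less RNA per cell cannot be told apart.

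None of the 10 AP-1 genes passed an adjusted p of 0.05 over all genes tested, and each of the 10 differences was under 1.5-fold. FOSL1 lay lowest, at 0.708 of its control level, and JUNB and BATF highest, at 1.27 and 1.24 times their control levels. FOS, JUN, JUND, ATF3 and BATF3 had log2 differences between -0.11, for JUND, and 0.02, for ATF3. In limma, 0 of 10 members were called in either direction, where 0.174% of all genes were called (32 of 18417, of which 17 lower and 15 higher). At an unadjusted p under 0.05 in limma, 1 member was lower (FOSL1) and 2 were higher (JUNB and BATF), against 8.04% and 6.25% of all genes. The 95% intervals of all 10 members lay inside a 2-fold change in either direction. The median log2 difference was 0.014 over the members and 0.008 over all genes.

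The groups did not overlap for 5 of the 10 members, a share close to the 45.5% of all genes. Of these 5, FOS, FOSL1 and FOSL2 were lower in both MKL1/2 shRNA arrays than in both control arrays (23% of all genes), and JUNB and BATF were higher (22.5% of all genes). For FOSB, JUN, JUND, ATF3 and BATF3 the groups overlapped. With 2 arrays against 2, an exact two-sided permutation test cannot go below p = 0.333, so single genes were read from the limma fit over all genes.

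**Figure D1:**
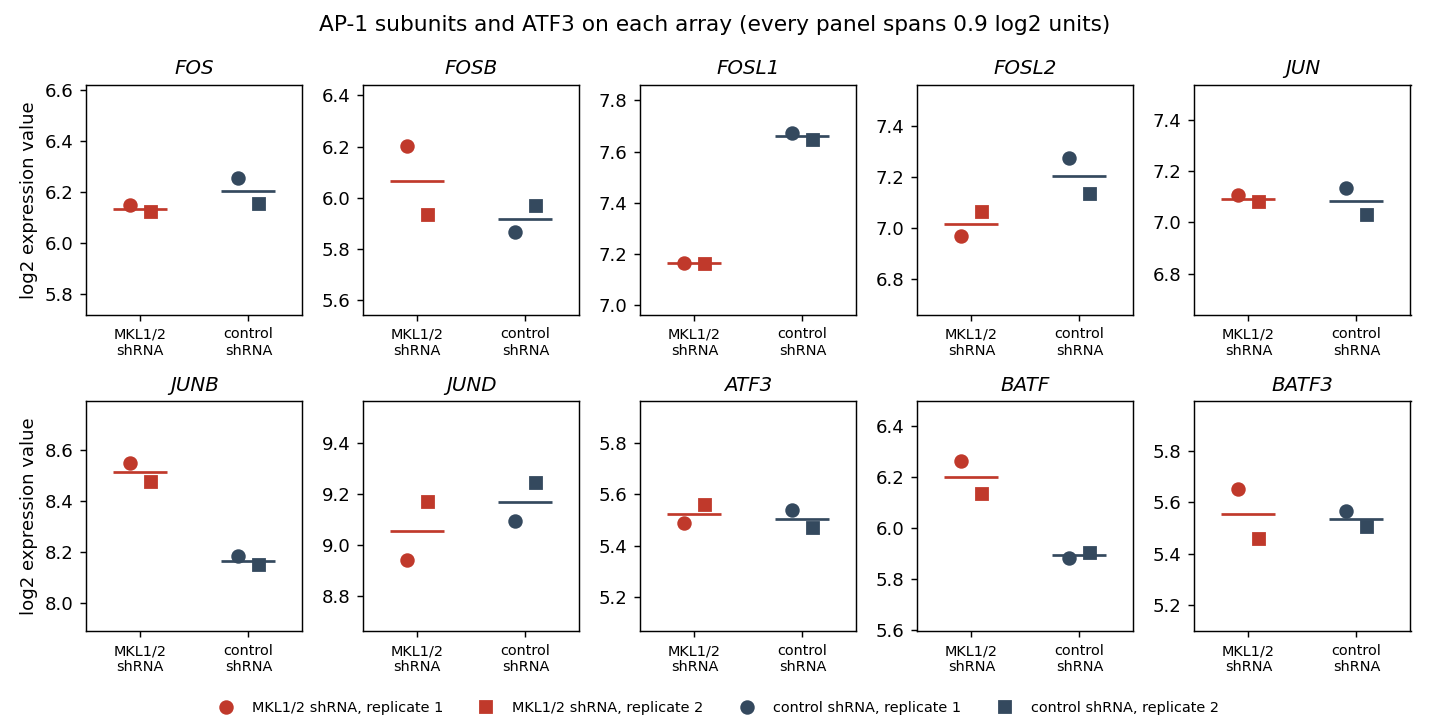
Log2 expression value (y axis) of each of the 10 genes on every array, with MKL1/2 shRNA samples on the left and control shRNA samples on the right; circles are replicate 1, squares replicate 2, and bars group means. Each panel spans the same number of log2 units: the groups are apart for FOSL1 (7.16 and 7.16 against 7.67 and 7.65), JUNB and BATF, narrowly apart for FOS and FOSL2, and overlap for the other 5 genes.

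Among the Fos genes, FOSL1 had the lowest values relative to control. FOSL1, which encodes the Fos-related antigen FRA-1, a subunit sustained by ERK signalling in invasive cells, read 7.16 and 7.16 in the MKL1/2 shRNA cells, against 7.67 and 7.65 in the control cells. Both knockdown values lay below both control values, and the 2 knockdown arrays lay closer together than for any other member. The log2 difference was -0.50 (SE 0.092, 95% interval -0.72 to -0.27), which did not pass over all genes (limma adjusted p = 0.123). FOSL1 ranked 233 among the 18417 genes by p. Relative to the control mean, it lay at -0.50 in knockdown replicate 1 and at -0.50 in knockdown replicate 2.

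FOSL2, which encodes FRA-2, another Fos protein without the strong activation domain of FOS, read 6.97 and 7.06 in the MKL1/2 shRNA cells and 7.27 and 7.13 in the control cells. The groups did not overlap, but the nearest arrays were apart by less than the control arrays were from each other. The difference was -0.19 (SE 0.104, limma adjusted p = 0.474).

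FOS, the founding immediate early gene of the family, read 6.15 and 6.12 in the MKL1/2 shRNA cells, against 6.26 and 6.15 in the control cells. Its difference was -0.07 (SE 0.097, limma adjusted p = 0.812), with a 95% interval from -0.30 to 0.17, and knockdown replicate 1 and control replicate 2 were almost equal. FOSB, an immediate early Fos gene that is a close relative of FOS, read 6.20 and 5.93 in the MKL1/2 shRNA cells and 5.87 and 5.97 in the control cells. Only knockdown replicate 1 lay above the controls, and knockdown replicate 2 lay between them. The difference of FOSB was 0.15 (SE 0.123, limma adjusted p = 0.652). Set against the control mean, knockdown replicate 1 was 0.28 higher and knockdown replicate 2 0.013 higher.

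The start regions of the 3 Jun genes are shown because AP-1 and SRF motifs are known to control genes of this family, and each of the 3 windows holds a different motif. Each window runs from 250 bases before to 50 bases after the start of the RefSeq gene (GRCh38.p14), 5′ to 3′ on the strand of the gene. JUNB is at chr19:12791236-12791535 on the plus strand, JUN at chr1:58783998-58784297 on the minus strand and JUND at chr19:18281573-18281872 on the minus strand. Capitals mark the motif found in each window.
JUNB: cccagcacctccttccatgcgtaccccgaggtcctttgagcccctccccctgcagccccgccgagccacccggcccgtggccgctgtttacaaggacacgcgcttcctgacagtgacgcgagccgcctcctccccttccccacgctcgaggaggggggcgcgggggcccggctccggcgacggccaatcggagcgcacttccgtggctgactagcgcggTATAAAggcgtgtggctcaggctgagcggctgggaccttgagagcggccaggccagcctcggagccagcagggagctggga
JUN: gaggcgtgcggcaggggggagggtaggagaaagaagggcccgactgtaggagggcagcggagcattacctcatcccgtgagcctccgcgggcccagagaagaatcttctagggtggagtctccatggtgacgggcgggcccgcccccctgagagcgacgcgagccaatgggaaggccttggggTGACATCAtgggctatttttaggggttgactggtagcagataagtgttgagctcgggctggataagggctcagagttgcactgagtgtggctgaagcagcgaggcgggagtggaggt
JUND: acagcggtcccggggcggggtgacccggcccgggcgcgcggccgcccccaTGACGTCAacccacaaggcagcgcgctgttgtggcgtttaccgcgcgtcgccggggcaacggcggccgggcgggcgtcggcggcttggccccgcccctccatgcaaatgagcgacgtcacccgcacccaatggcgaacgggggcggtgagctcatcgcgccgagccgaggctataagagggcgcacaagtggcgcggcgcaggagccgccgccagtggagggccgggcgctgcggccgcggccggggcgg

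The motif in the JUNB window is a TATA box (TATAAA), 31 to 26 bases before the start. In JUN it is TGACATCA, 67 to 60 bases before the start, a variant of the TRE known as the site of autoregulation by JUN. In JUND it is TGACGTCA, the CRE bound by ATF and CREB proteins and by some Jun dimers, 200 to 193 bases before the start. Windows were searched on both strands for the TRE (TGACTCA), the CRE (TGACGTCA), TGACATCA, TATAAA and the CArG box, and no matches overlapped. Start regions were available for 8 of the 10 members, 9 windows in all with 2 for ATF3. None was available for FOSL1 and BATF3, which were not searched. TGACTCA was in 1 of the 9 (FOSL2) and in 4.95% of 35116 windows of all genes, TGACGTCA in 1 of 9 (JUND) and 1.85%, and TGACATCA in 2 of 9 (JUN and 1 of ATF3) and 2.61%. TATAAA was in 4 of the 9 windows (FOS, FOSB, JUNB and 1 of ATF3) and in 11.5% of all. The CArG box was in 0 of 9 windows and in 1.29% of all. That says only that these letters are not in these windows, and a match is a description of sequence, which the arrays did not measure.

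Among the Jun genes, JUNB was higher in both knockdown samples, whereas JUN and JUND overlapped the controls. JUNB, an immediate early subunit that activates weakly and can oppose JUN, read 8.55 and 8.48 in the MKL1/2 shRNA cells, against 8.18 and 8.15 in the control cells. Both knockdown values lay above both control values, by several times the gap between the controls. The log2 difference was 0.35 (SE 0.095, 95% interval 0.12 to 0.58) and did not pass over all genes (limma adjusted p = 0.210). It was 0.38 in knockdown replicate 1 and 0.31 in knockdown replicate 2, relative to the control mean.

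JUN, the gene whose window holds the TRE variant, read 7.11 and 7.08 in the MKL1/2 shRNA cells and 7.14 and 7.03 in the control cells. Both knockdown values lay between the controls, and the difference was 0.01 (SE 0.097, limma adjusted p = 0.978), with a 95% interval from -0.23 to 0.25. JUND, the Jun subunit that many resting cells express constantly, read 8.94 and 9.17 in the MKL1/2 shRNA cells and 9.09 and 9.24 in the control cells. Knockdown replicate 1 was the lowest of the 4 arrays, and knockdown replicate 2 lay between the controls. The difference of JUND was -0.11 (SE 0.12, limma adjusted p = 0.739).

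**Figure D2:**
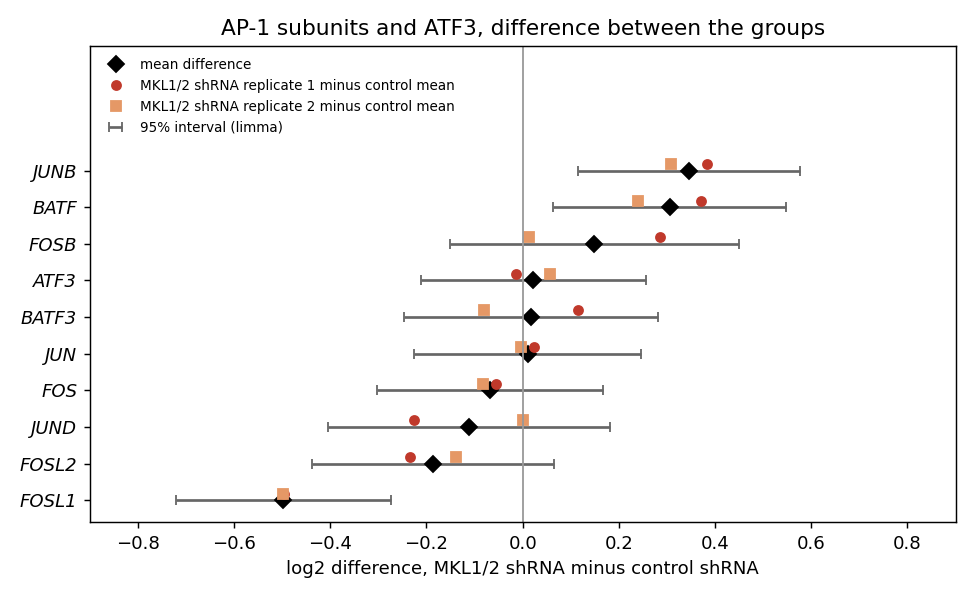
Log2 difference (x axis, MKL1/2 shRNA minus control shRNA) of the 10 genes, sorted from JUNB at the top to FOSL1 at the bottom; diamonds are mean differences, bars 95% limma intervals for single genes, and coloured points each knockdown array minus the control mean. The intervals of FOSL1, JUNB and BATF leave out 0 without adjustment for the number of genes tested, and those of the other 7 genes include it.

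ATF3, BATF and BATF3 are zipper proteins that pair with Jun proteins. ATF3, a stress-induced gene whose protein often represses, read 5.49 and 5.56 in the MKL1/2 shRNA cells and 5.54 and 5.47 in the control cells. The 4 arrays were interleaved, and the difference was 0.02 (SE 0.096, limma adjusted p = 0.950), with a 95% interval from -0.21 to 0.26. BATF3, known for its role in dendritic cells, read 5.65 and 5.46 in the MKL1/2 shRNA cells and 5.57 and 5.51 in the control cells. The 2 knockdown arrays enclosed the controls, and the difference was 0.02 (SE 0.109, limma adjusted p = 0.968).

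BATF, known mainly from lymphocytes, where it works with JUN proteins and the factor IRF4, read 6.26 and 6.13 in the MKL1/2 shRNA cells, against 5.88 and 5.90 in the control cells. Both knockdown values lay above both control values. The difference was 0.31 (SE 0.099, 95% interval 0.064 to 0.55, limma adjusted p = 0.260). Of 9 measured lymphoid and myeloid markers, 8 also had differences above 0, with a median of 0.14, and none passed the test in limma. Of 7 measured fibroblast and endothelial markers, 5 lay above 0, with a median of 0.065, and none passed the test in limma. Of all 18417 genes, 9568 lay above 0, and the median was 0.008. At an unadjusted p under 0.05 in limma 2 of the 9 lymphoid and myeloid markers were higher (IRF4 and PTPRC) and 0 lower. Of all genes, 6.25% were higher and 8.04% lower. For 5 of the 9 both knockdown values lay above both control values, against 22.5% of all genes. The mean log2 value of these 9 markers was 5.43 and 5.32 on the MKL1/2 shRNA arrays and 5.23 and 5.25 on the control arrays. PTPRC, the pan-leukocyte antigen CD45, read 3.22 and 2.96 in the MKL1/2 shRNA cells, against 2.78 and 2.80 in the control cells. The lower quartile of probes annotated to 1 gene was 4.94 and 4.90 on the MKL1/2 shRNA arrays and 4.88 and 4.88 on the control arrays. PTPRC lay below it on every array. IRF4 read 4.90 and 4.77 in MKL1/2 shRNA cells, against 4.46 and 4.64 in control cells. These markers were not compared with genes of like brightness. The highest of these markers, LYZ, which encodes lysozyme, read 12.25 and 12.02 in MKL1/2 shRNA cells and 12.07 and 12.13 in control cells. Of the 9 markers, 5 lay below the lower quartile of the genes tested on every array. Their part in the BATF value was not tested. All 10 AP-1 genes read above the lower quartile of the genes tested on every array, and the lowest member value was 5.46, of BATF3. By mean value ATF3 stood at percentile 35 of the genes tested, BATF3 at 35.6, FOSB at 43.8, BATF at 44.9 and FOS at 47.4. The other members stood between 63.7, for JUN, and 91.2, for JUND. IRF8, among the lymphoid and myeloid markers, read 5.61 and 5.71 in MKL1/2 shRNA cells and 5.66 and 5.54 in control cells. Whether the dimmer members read above background was not tested.

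Leaving out single arrays called no member, and moved the values unequally. The fits without a control array called no gene at all, so they say nothing particular about the members. FOSL1 stayed between -0.51 and -0.48, JUNB between 0.31 and 0.38 and BATF between 0.24 and 0.37 on the log2 scale. Without knockdown replicate 2, the limma adjusted p was 0.0561 for FOSL1, 0.0884 for JUNB and 0.0937 for BATF. Without control replicate 1 it was 1 for each of the 3. FOSB ranged more widely, from 0.013 without knockdown replicate 1 to 0.28 without knockdown replicate 2. JUND ranged from -0.23 without knockdown replicate 2 to 0.0015 without knockdown replicate 1.

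**Figure D3:**
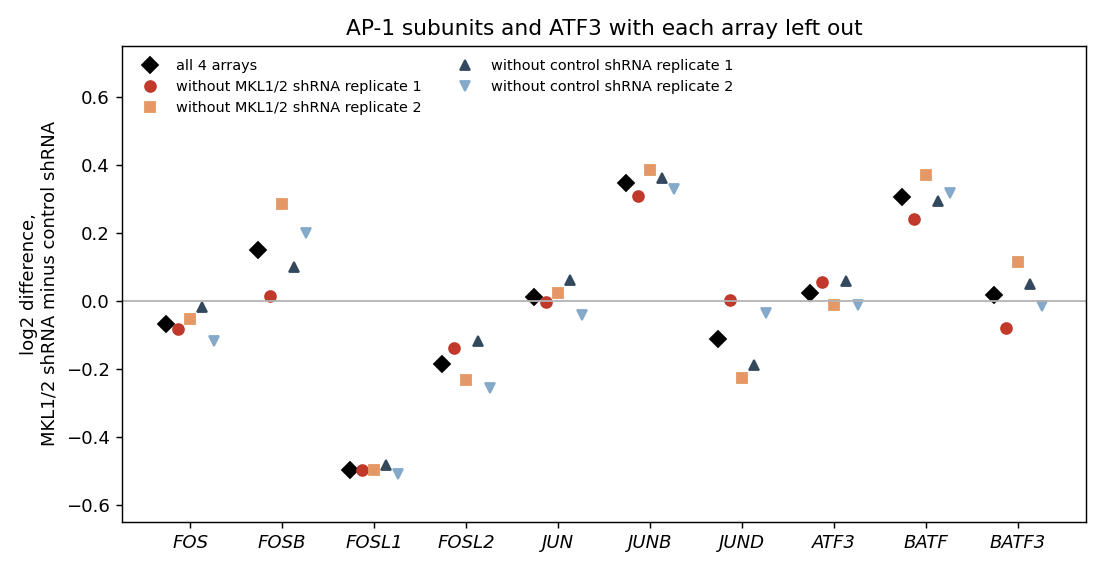
Log2 difference (y axis, MKL1/2 shRNA minus control shRNA) of each gene with all 4 arrays and with each array left out. FOSL1 and JUNB move least relative to their size, BATF lies between 0.24 and 0.37, FOSB, JUND and BATF3 depend on which knockdown array is used, and JUN and ATF3 lie near 0.

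The regulators above the AP-1 genes showed no called change. Of 6 measured genes for SRF and its cofactors, besides the MRTFA probe, 0 were called in limma in either direction, and the median was -0.13. Of the 6, 2 were lower at an unadjusted p under 0.05 in limma, against 8.04% of all genes. SRF read 9.37 and 9.52 in the MKL1/2 shRNA cells, against 9.80 and 9.97 in the control cells (log2 difference -0.44, SE 0.113, limma adjusted p = 0.188). ELK3, a ternary complex factor that can repress, lay at -0.46 (SE 0.157, limma adjusted p = 0.277), with 7.00 and 7.42 in MKL1/2 shRNA cells and 7.59 and 7.75 in control cells. ELK1, a ternary complex factor phosphorylated by ERK, lay at 0.22 (SE 0.092, limma adjusted p = 0.361). Of 15 measured genes of the MAP kinase pathway, 0 were called and 0 reached an unadjusted p under 0.05 in limma, where 14.3% of all genes did. The median of the 15 was 0.053. Their 3 smallest p belonged to MAP2K3 (log2 difference 0.25, SE 0.108), a kinase of the p38 branch, to MAPK9 (0.19, SE 0.122), the kinase JNK2, and to RPS6KA1 (0.13, SE 0.096), the ERK-activated kinase RSK1.

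Genes for other zipper partners and for turnover of AP-1 proteins were likewise not called. Of 14 measured partners, 0 were called in limma, and the median was -0.07. At an unadjusted p under 0.05 in limma, 2 were lower and 1 was higher, against 8.04% and 6.25% of all genes. NFE2L1, a cap'n'collar factor of proteasome genes, read 8.03 and 8.32 in the MKL1/2 shRNA cells, against 8.92 and 8.83 in the control cells (log2 difference -0.70, SE 0.127, limma adjusted p = 0.120). MAF, a large Maf factor, read 7.56 and 7.63 in the MKL1/2 shRNA cells, against 7.02 and 7.19 in the control cells (0.49, SE 0.106, limma adjusted p = 0.148). MAFG, a small Maf factor without an activation domain, lay at -0.38 (SE 0.128). Of 8 measured cofactors and ubiquitin ligases, 7 lay below 0, as did 8845 of all 18417 genes, and the median of the 8 was -0.14. In limma 0 were called, and 2 were lower at an unadjusted p under 0.05, against 8.04% of all genes. Among the 8 were CREBBP, a coactivator acetylase of JUN and FOS (-0.36, SE 0.102), FBXW7, a ubiquitin ligase subunit that targets JUN (-0.36, SE 0.125), and ITCH, a ligase for JUN and JUNB (-0.22, SE 0.101).

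Of 27 measured AP-1 target genes, 1 fell and none rose over all genes tested in limma, against 0.0923% and 0.0814% of all genes. The 1 was TGFB1, a cytokine gene with AP-1 sites in its promoter, which read 7.46 and 7.89 in the MKL1/2 shRNA cells, against 9.50 and 9.72 in the control cells (log2 difference -1.94, SE 0.165, limma adjusted p = 0.0217). Without control replicate 1 the log2 difference was -2.05 and without control replicate 2 -1.82, and the call was lost (limma adjusted p = 0.465 and 0.41). The list's median was 0.031. At an unadjusted p under 0.05 in limma 3 of its genes were lower and 4 higher, against 8.04% and 6.25% of all genes. PLAU, the urokinase gene, which has AP-1 sites in its enhancer, read 7.88 and 8.06 in the MKL1/2 shRNA cells, against 7.19 and 7.13 in the control cells (0.81, SE 0.106, limma adjusted p = 0.0688). EREG, a ligand of the EGF receptor, read 8.40 and 8.61 in the MKL1/2 shRNA cells, against 7.73 and 7.83 in the control cells (0.73, SE 0.114, limma adjusted p = 0.0944).

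Of 17 measured immediate early genes outside the AP-1 family, 2 were lower at an unadjusted p under 0.05 in limma, against 8.04% of all genes. In limma 0 of the 17 were called, and their median was 0.076. CCN1, a matricellular gene, had the largest difference of these, at -1.81 (SE 0.421, limma adjusted p = 0.162), with 6.87 and 8.29 in the MKL1/2 shRNA cells and 9.50 and 9.28 in the control cells. DUSP1, which inactivates MAP kinases, differed by -0.56 on the log2 scale (SE 0.175, limma adjusted p = 0.250) and MYC by 0.21 (SE 0.094, limma adjusted p = 0.374). Of 12 measured genes of the integrated stress response around ATF3, 0 were called in limma. At an unadjusted p under 0.05 in limma 2 of the 12 were lower, against 8.04% of all genes. The median of the 12 was 0.008. It was -0.21 in knockdown replicate 1 and 0.12 in knockdown replicate 2. ASNS, asparagine synthetase, lay at -0.45 (SE 0.113), PPP1R15A, a phosphatase subunit that ends the response, at -0.38 (SE 0.131), and SESN2, a stress-induced inhibitor of mTORC1, at 0.33 (SE 0.142).

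**Figure D4:**
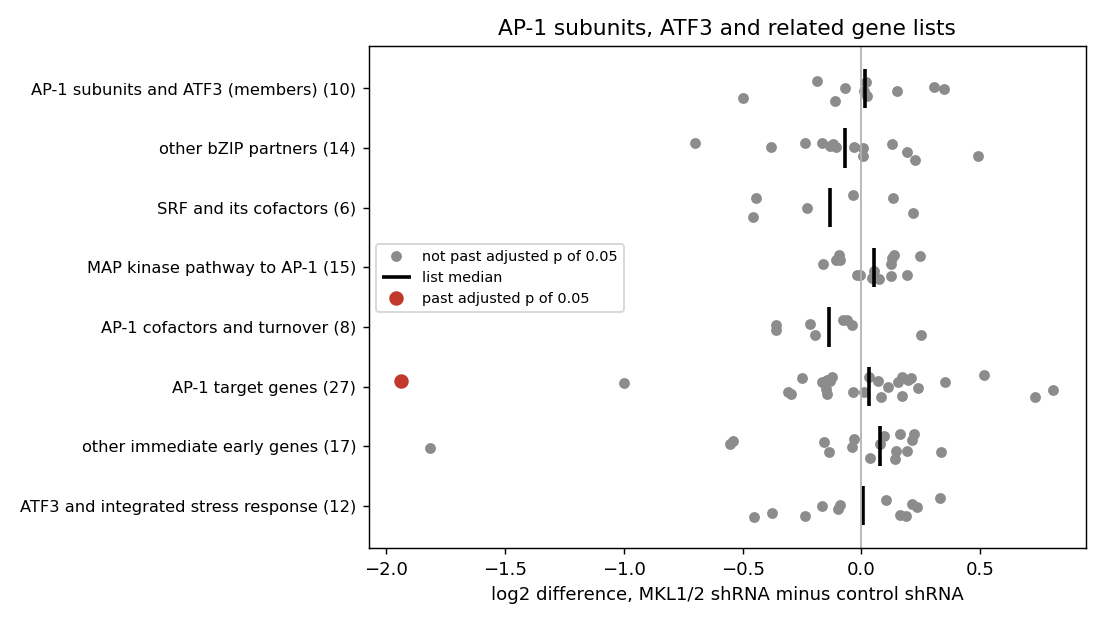
Log2 difference (x axis, MKL1/2 shRNA minus control shRNA) of each measured gene on the 8 lists, with the number measured in brackets and the list median as a black line. Of all genes shown, TGFB1 among the AP-1 target genes is the 1 past an adjusted p of 0.05 (red), and the 10 AP-1 genes lie between -0.50 and 0.35.

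The genes whose pattern over the 4 arrays was closest to that of FOSL1 were TMC7, KPNA3 and MYEF2. Likeness was the root mean square distance between log2 values centred on the mean of each gene, over 4 arrays and all genes tested. TMC7, a transmembrane channel-like gene, had a distance of 0.0135 and read 8.23 and 8.21 in the MKL1/2 shRNA cells, against 8.75 and 8.69 in the control cells. KPNA3, a nuclear import receptor, had a distance of 0.0151, and MYEF2, which encodes a nucleic acid-binding repressor of the myelin basic protein gene in mouse, 0.0179. With 4 arrays, many genes can share such a pattern.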

How the data were processed

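RNA of 4 HuH7 samples, 2 per group, was read on 1 array each. The authors deposited log2 expression values for 33297 probes. The submitters' processing notes name Partek; the steps and settings run in it were not given in the sources used here. Values span 1.03 to 13.65 and were read as log2, since on other log scales they would pass a scanner's range. No detection call stands behind a value.

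The platform annotation pairs 19460 probes with 1 gene and 1754 with several, and does not list the other 12083. Current symbols came from the RefSeq gene table of GRCh38.p14 by Entrez identifier (19429 found). For genes with several probes the one with the highest mean was used, which gave 18417 genes. Differences are MKL1/2 shRNA minus control shRNA, tested two-sided with lmFit and eBayes of limma 3.58.1 (R 4.3.3) with group as the term. P-values were adjusted by the Benjamini-Hochberg method over the 18417 genes, and 0.05 was the threshold. The MRTFA probe, which lists 2 genes, was adjusted in a fit of these genes plus that probe. SEs and 95% intervals are limma's moderated ones, and intervals are not adjusted for multiple tests. The number of arrays limits the precision. The procedure was tested on simulated data.

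The members, the gene lists and the rule for named genes (all members, and in each list genes past the threshold and the 3 with the smallest p) were chosen with earlier results of these data known. Listed genes without a probe of their own were not analysed here. Alternatives changed the dim-gene filter, normalization, probe choice, variance moderation and threshold, added a replicate block, and left out each array.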

Additional observations from a re-analysis of the deposited data

How the results depend on the processing

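No member passed an adjusted p of 0.05 under any of the settings tried. Some settings, named below, called no gene at all, so their lack of a called member adds nothing. FOSL1 came below 0.1 with all 4 arrays in the setting without the dimmest 40% of genes (limma adjusted p = 0.0874), where fewer genes are tested. In the other settings with all 4 arrays, 0 members passed 0.1. Over 128 values of the 10 members in other settings, 119 kept their direction and 9 changed sign, of JUN, JUND, ATF3 and BATF3. Many of these values could not differ from the main fit. Each member has 1 probe, so with all 4 arrays only a change of normalization could alter its difference. FOS, FOSB, FOSL1, FOSL2, JUNB and BATF kept their sign in each setting tried. For FOS, FOSL1, FOSL2, JUNB and BATF, whose groups did not overlap, leaving out 1 array could not change the sign. With quantile normalization ATF3 was at -0.016 and BATF3 at -0.017 on the log2 scale. With 1 array left out, JUN lay between -0.042 and 0.062, JUND between -0.23 and 0.0015, ATF3 between -0.013 and 0.057 and BATF3 between -0.08 and 0.11. ATF3 and BATF3 have no value without the dimmest 40% of genes, which leaves them out.

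The counts over all genes, 17 lower and 15 higher, moved more. Lower genes were 27 without the dimmest 40%, 29 with quantile normalization, 28 with robust eBayes, 0 without variance moderation (1022 at an unadjusted p under 0.05) and 78 at an adjusted p of at most 0.1. Higher genes were 23 with robust eBayes, 0 without variance moderation (818 at an unadjusted p under 0.05) and 66 at an adjusted p of at most 0.1. With 1 array left out they ranged from 0 to 442 lower and from 0 to 339 higher, and were 0 without either control array (452 lower and 414 higher at an unadjusted p under 0.05 without control replicate 1, 676 and 543 without control replicate 2). They were 135 and 164 without knockdown replicate 1. A set of 3 arrays takes its spread from the remaining pair, so the lone sample is assumed to vary like the other group. The fall of the MRTFA probe and of TGFB1 also missed the threshold without variance moderation (ordinary t-test, adjusted p = 0.416 and 0.472). The causes of the other moves were not tested.

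Nothing in the labels ties a replicate number to a day or batch, and same-numbered samples had a correlation of -0.0669 between their deviations, so they were not taken as pairs. With the replicate block there were 38 lower and 55 higher genes and 0 members called, and FOSL1 had a limma adjusted p of 0.157. No scanner files were used here, so the background of dim genes is unknown.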
